A study of Mus musculus with 2 samples.

Results

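The genes of the proteasome were followed in 2 long-read RNA libraries of mouse adrenal gland. Members were the annotated protein-coding genes whose symbols begin with Psma, Psmb, Psmc, Psmd, Psme, Psmf or Psmg followed by a digit. Reads were assigned to 49 such genes, of 16745 annotated genes with reads, 13975 of them protein-coding. All 49 had reads in replicate 1 and 47 in replicate 2. The symbol rule also takes in Psmc3ip, a meiotic recombination factor that is not a proteasome subunit. Psmb11, the thymic catalytic subunit, was annotated and had no read in either library.

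The proteasome is the protease that degrades ubiquitin-tagged proteins. Its barrel-shaped core stacks rings of alpha subunits, which gate the entrance, around rings of beta subunits, which carry the active sites. A regulatory particle on either end binds ubiquitin, unfolds the substrate with a ring of ATPases and threads it into the core, and inflammatory signals can exchange the catalytic beta subunits for inducible ones. Dedicated chaperones assemble the particles, and other activators or an inhibitor can bind the core in place of the regulatory particle.

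Both libraries came from adrenal gland of C57BL/6J mice, with no treatment and no genetic change given, and the labels number them as biological replicates 1 and 2. They share a donor entry, so how far apart the animals were is not known and p-values measure the difference between these libraries only. Sex is given as male in one field and as not collected in another, and the age was unknown. There is no second condition, and every comparison below is between these libraries.

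Replicate 1 held 848782 reads and replicate 2 held 545229. Levels are given as CPM, reads scaled by the total of the library and not divided by transcript length. The difference between the libraries depended on length, so levels of genes of unlike length within a library carry that limit. The libraries differed widely in all genes. Among 9879 genes with at least 10 reads summed, 64.4% differed between them (exact Fisher test, adjusted p under 0.05), 36.6% higher and 27.9% lower in replicate 2. Short transcripts were scarcer in replicate 2: genes with annotated transcripts under 1500 bases had a median log2 ratio of -2.72 and those of 2000 bases or more 1.15. TMM factors (edgeR) and DESeq2 size factors shifted the log2 ratios down by 0.43 and 0.45, and the median of all tested genes was then -0.05 and -0.06. The 6 adrenal cortex markers took 5.57% and 8.21% of reads and the 6 medulla markers 1.32% and 2.59%. Single markers went both ways: 5 cortex markers were higher in replicate 2 and 1 lower, and 3 medulla markers higher and 3 lower. Against genes of like annotated length, 2 cortex markers were higher and 4 lower, and 4 medulla markers higher and 2 lower. Endothelial markers took 0.0289% and 0.128%, adipocyte markers 0.0201% and 0.00422%, and of 3 kidney markers 1 had a single read.

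Proteasome genes took 9136 reads, or 1.08% of replicate 1 (95% exact binomial interval 1.05 to 1.10%). In replicate 2 they took 2081 reads, or 0.382% (0.365 to 0.398%). The mean share was 0.729% ± 0.491 (SD, n = 2), and the intervals, which cover counting error only, did not overlap. In whole tissue, fewer cells of a type and less RNA per cell cannot be told apart. A difference passed in 41 of the 46 genes with enough reads to be tested: 36 had less in replicate 2 and 5 had more, beside 64.4% of all genes called. The 5 genes with more were Psmd1, Psmd2, Psmd3, Psmd5 and Psme3. The median log2 ratio of replicate 2 over replicate 1 (CPM plus a pseudocount of 1) was -2.75 over the tested members and 0.38 over all tested genes. With the genes at 0 reads set at their bounds, the members' median was -2.74. TMM and DESeq2 factors each gave 4 higher and 39 lower members, beside 61.4% and 61.3% of all genes called and 33.8% lower by either. Without the models classed as genomic, 6 members were higher and 37 lower, beside 69.7% called and 29.2% lower.

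By total reads, the parts of the complex differed by unequal amounts. The alpha ring took 0.229% and 0.0174% of reads and the constitutive beta ring 0.265% and 0.0114%. The ATPases took 0.197% and 0.0488%. The non-ATPase subunits of the regulatory particle took 0.276% in replicate 1 and 0.259% in replicate 2. Within that group 3 genes were higher in replicate 2 and 8 lower, so that the sums lay close while the genes did not. For these parts in the same order, the median log2 ratios by total reads were -3.62, -3.99, -2.10 and -2.02. Against genes of like annotated length they were -0.84, -0.78, -1.02 and -0.83, so little of the contrast between the parts remained. Against genes of like coding length they were -2.14, -2.54, -2.93 and -2.24. In replicate 1 the core genes Psmb6, Psmb1 and Psmb5 stood among the highest, and in replicate 2 the highest were Psmd2, Psmd1 and Psmd3. Across the 46 tested genes the levels in the 2 libraries had a Spearman rho of 0.26, a description of genes that share both libraries.

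**Figure D1:**
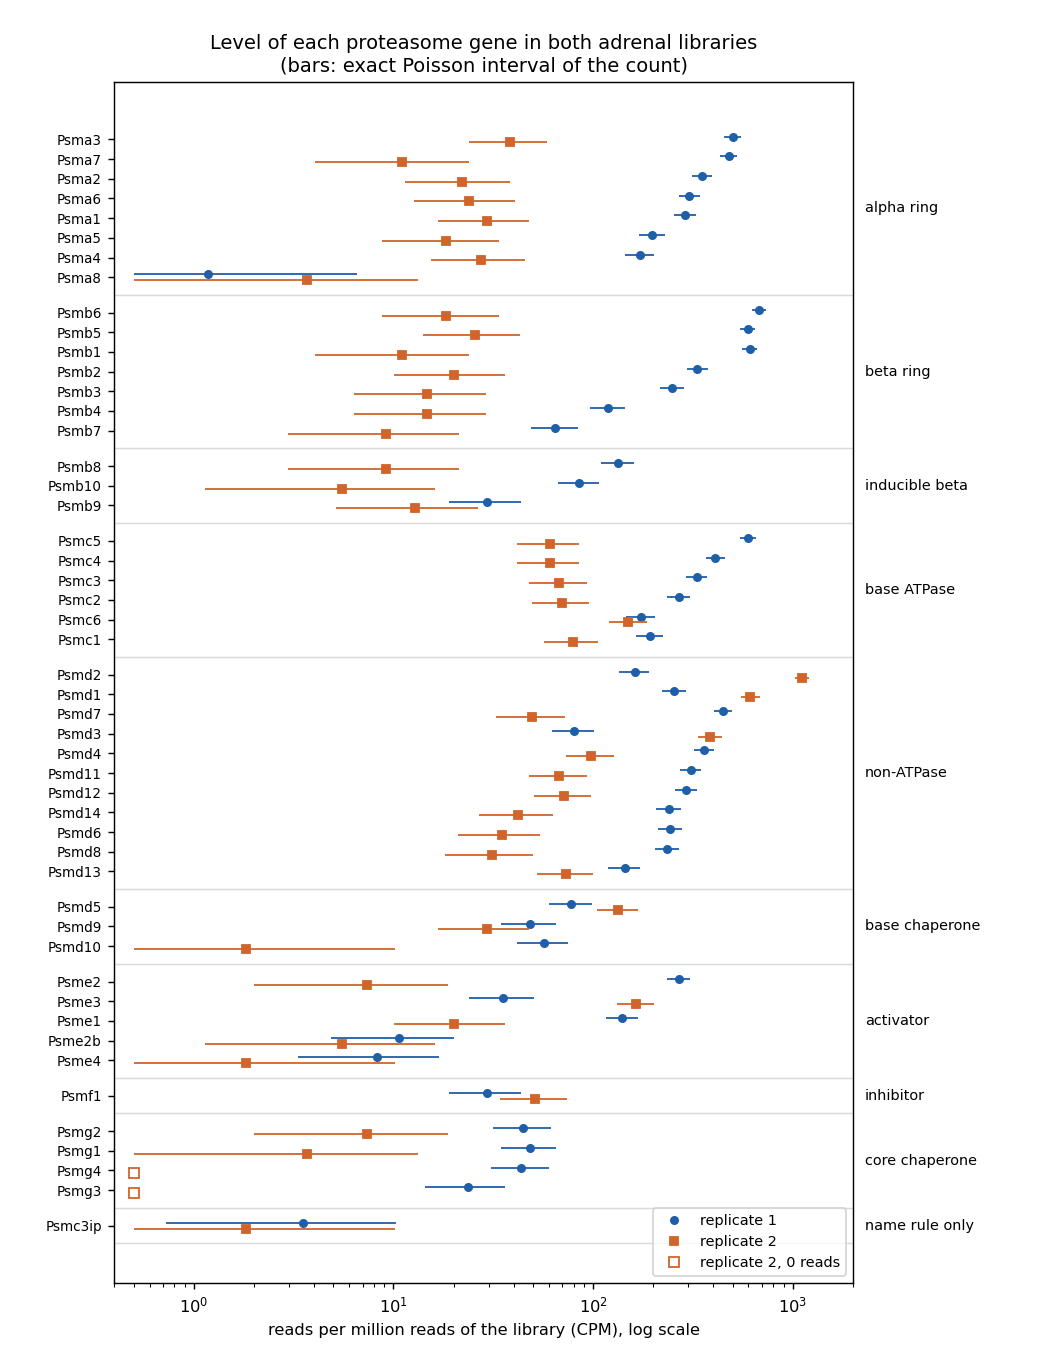
Level of each of the 49 genes in CPM on a log axis, grouped by role and ordered by mean, with circles for replicate 1, squares for replicate 2 and bars for the 95% exact Poisson interval of the count (bars reaching below 0.5 CPM are drawn from there). Open squares mark Psmg3 and Psmg4, with 0 reads in replicate 2. The widely used alpha and the beta ring genes all lie lower in replicate 2, while Psmd1, Psmd2, Psmd3, Psmd5 and Psme3 lie higher in it. Psmf1, which did not pass by total reads, and Psma8, which was not tested, also lie higher in replicate 2.

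The 7 widely used alpha subunits had between 146 and 424 reads in replicate 1 and between 6 and 21 in replicate 2. All 7 were lower in replicate 2, with a median log2 ratio of -3.62. Psma3 was the highest of them, at 424 and 21 reads (499.5 and 38.5 CPM), 13.0-fold higher in replicate 1 (adjusted p = 4.13e-63, exact Fisher test). Psma7 had the widest difference, with 405 and 6 reads (477 and 11.0 CPM, 43.4-fold, adjusted p = 6.87e-76). Psma4, the lowest of the 7 by mean, had 146 and 15 reads, 172 and 27.5 CPM. The library order was the same for each of the 7, with replicate 1 high and the counting intervals apart. Psma8, an alpha subunit known from the testis, had 1 read in replicate 1 and 2 in replicate 2, all 3 of them in its full annotated structure, and was not tested.

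All 7 constitutive beta subunits were lower in replicate 2, with a median log2 ratio of -3.99. The structural subunit Psmb1 had 516 and 6 reads (608 and 11.0 CPM, 55.2-fold, adjusted p = 5.12e-99, exact Fisher test). The 3 catalytic subunits were unequal. Psmb6, which cuts after acidic residues, had 574 and 10 reads, 676 and 18.3 CPM. Psmb5, which cuts after hydrophobic residues and is the site that clinical proteasome inhibitors bind first, had 506 and 14 reads, 596 and 25.7 CPM. Psmb7, which cuts after basic residues, had 55 and 5 reads, 64.8 and 9.17 CPM, the lowest level of the beta ring in both libraries. The proteins sit in the core in equal numbers, whereas in replicate 1 the counting interval of Psmb7 lay far below those of Psmb5 and Psmb6. The annotated transcripts of Psmb5, Psmb6 and Psmb7 are 899, 798 and 1160 bases.

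The inducible subunits Psmb8, Psmb9 and Psmb10 take the places of Psmb5, Psmb6 and Psmb7 in the immunoproteasome, the form that makes peptides for antigen presentation. Psmb8 had 113 and 5 reads (133 and 9.17 CPM, adjusted p = 8.03e-18) and Psmb10 had 72 and 3 (84.8 and 5.50 CPM, adjusted p = 9.74e-12), both lower in replicate 2 by the exact Fisher test. Psmb9 had 25 and 7 reads, 29.5 and 12.8 CPM, and did not pass (adjusted p = 0.071). It was lower with TMM and DESeq2 factors (log2 ratio -1.54 and -1.55, adjusted p = 0.013 for both) and without genomic models (-2.11, adjusted p = 0.0067). Of the reads of all 6 catalytic genes, inducible ones made up 15.6% in replicate 1 (210 of 1345, interval 13.7 to 17.7%) and 34.1% in replicate 2 (15 of 44, interval 20.5 to 49.9%). The mean was 24.9% ± 13.1 (SD, n = 2). The widest difference was that of Psmb9, whose share of its pair was 4.17% (25 of 599) and 41.2% (7 of 17). For Psmb8 the shares were 18.3% and 26.3%, with overlapping intervals. For Psmb10 they were 56.7% (72 of 127, interval 47.6 to 65.5%) and 37.5% (3 of 8), again overlapping. Psmb10 had more reads than its constitutive partner in replicate 1, which Psmb8 and Psmb9 did not. Counting known structures alone, the inducible share was 14.8% (194 of 1307) and 25% (8 of 32), and the intervals of the libraries then overlapped. Psmb9 fell to 2 of 11 reads of its pair in replicate 2 by that count. The 12 immune markers, 8 lower and 4 higher in replicate 2, took 0.185% and 0.0488% of reads, with Cd52 at 0 in replicate 2. Against genes of like annotated length, 1 of the 12 was higher and none lower. The part of these markers in the inducible share was not tested. Annotated transcripts of Psmb8, Psmb9 and Psmb10 have 1628, 1352 and 1311 bases, and those of Psmb5, Psmb6 and Psmb7 899, 798 and 1160. For genes of these lengths the median log2 ratio was -1.18, -2.21 and -2.28, and -3.33, -3.27 and -2.79. Nor was the part of length in the inducible share tested.

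**Figure D2:**
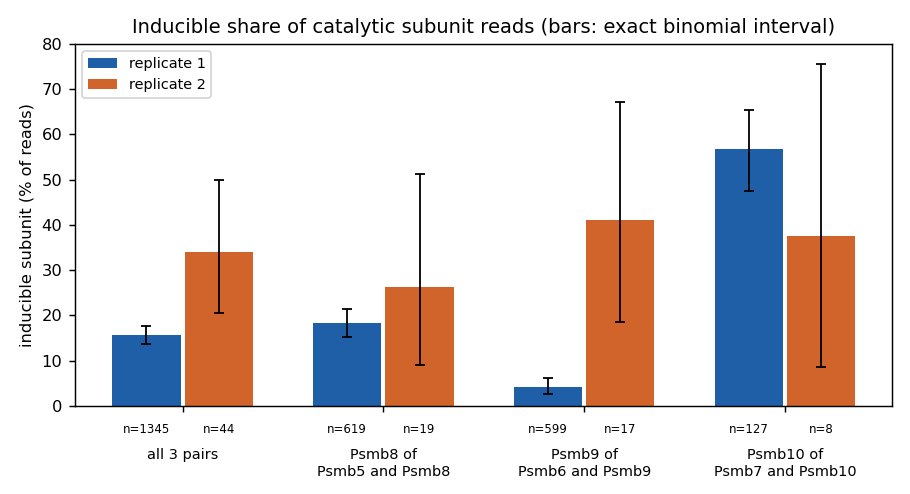
Inducible subunits as a percentage of the reads of inducible and constitutive partners together, for the 3 pairs and their sum, in both libraries, with 95% exact binomial intervals and the number of reads under each bar. The intervals of the sum and of the Psmb6 and Psmb9 pair do not overlap between the libraries, while those of the other pairs do, with 19 and 8 reads in replicate 2.

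The 6 ATPases of the base unfold substrates and open the gate of the core. They ranged from 147 to 508 reads in replicate 1 and from 33 to 82 in replicate 2. Psmc5 was the highest by mean, with 508 and 33 reads (599 and 60.5 CPM, 9.89-fold, adjusted p = 6.17e-69, exact Fisher test). Psmc1 was the lowest by mean, with 164 and 43 reads, 193 and 78.9 CPM. Psmc6, with the longest annotated transcript of the 6, had 147 and 82 reads, 173 and 150 CPM, and did not pass (adjusted p = 0.41). It was lower with TMM factors (log2 ratio -0.63, adjusted p = 0.0025) and DESeq2 factors (-0.64, adjusted p = 0.0024), and also beyond annotated and coding length. The other 5 were lower in replicate 2.

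Among the other subunits of the regulatory particle, Psmd2 and Psmd1, the large scaffolds of the base, led in replicate 2. Psmd2 (chr16:20651652-20663414) had 137 reads in replicate 1 and 609 in replicate 2, 161 and 1117 CPM, 6.92-fold higher in replicate 2 (adjusted p = 1.97e-123, exact Fisher test). Psmd1 (chr1:86064387-86139151) had 216 and 335 reads, 254 and 614 CPM, 2.41-fold higher (adjusted p = 1.20e-23). Psmd3, a lid subunit, had 68 and 211 reads, 80.1 and 387 CPM, 4.83-fold higher (adjusted p = 8.01e-34). The other 8 subunits of this group were lower in replicate 2, with 122 to 379 reads in replicate 1 and 17 to 53 in replicate 2. Psmd7, the partner of the deubiquitinase, had 379 and 27 reads, 447 and 49.5 CPM. The deubiquitinase itself, Psmd14, had 203 and 23 reads, 239 and 42.2 CPM. Psmd4, a ubiquitin receptor, had 305 and 53 reads, 359 and 97.2 CPM. Psmd13, the lowest of the group by mean, had 122 and 40 reads, 144 and 73.4 CPM, and had the smallest difference of the 8 (1.96-fold, adjusted p = 0.00033).

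Among the chaperones of the base, Psmd5 had 66 and 73 reads (77.8 and 134 CPM) and was higher in replicate 2 (1.72-fold, adjusted p = 0.0033, exact Fisher test). With TMM factors it did not pass (adjusted p = 0.23). Psmd10 had 48 reads and 1 read, 56.6 and 1.83 CPM, and was lower. Psmd9 had 41 and 16 reads, 48.3 and 29.3 CPM, and did not pass (adjusted p = 0.14). It was lower with TMM and DESeq2 factors (log2 ratio -1.12 and -1.13, adjusted p = 0.0099 and 0.0097). The 4 chaperones of the core were all lower in replicate 2. Psmg1 had 41 and 2 reads and Psmg2 had 38 and 4. Psmg4 had 37 reads in replicate 1 and 0 in replicate 2, at least 7.92-fold higher in replicate 1 when 0 is set at 3 reads of that library. Psmg3 had 20 reads and 0, at least 4.28-fold higher. The median log2 ratio of the 4 was -4.01, or -2.72 with the genes at 0 set at their bounds. Against genes of like annotated length none of the 4 passed, and by coding length Psmg1 alone did.

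Psme1 and Psme2 form the interferon-inducible activator ring. Psme1 had 119 and 11 reads, 140 and 20.2 CPM, and Psme2 had 228 and 4, 269 and 7.34 CPM, both lower in replicate 2 (adjusted p = 2.20e-14 and 4.86e-42, exact Fisher test). Psme3, the nuclear activator, moved the other way, with 30 and 89 reads, 35.3 and 163 CPM, 4.62-fold higher (adjusted p = 2.18e-14). The coding sequences of Psme1, Psme2 and Psme3 are of like length, 747, 717 and 762 bases, but the annotated transcripts are 1112, 962 and 2664 bases. Psme2b had 9 and 3 reads, 10.6 and 5.50 CPM, and did not pass. It is an intronless copy of Psme2, and reads of such copies can be split between them. Psme4, the large monomeric activator, had 7 reads and 1 read, none in a full annotated structure, and was not tested. Psmf1, which inhibits the core, had 25 and 28 reads, 29.5 and 51.4 CPM, and did not pass (adjusted p = 0.072). Without genomic models it was higher (log2 ratio 0.90, adjusted p = 0.044). Psmc3ip had 3 reads and 1.

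Transcript length ordered the members' differences, as it did those of all genes. Over the 46 tested members the log2 ratio had a Spearman rho of 0.63 with annotated length and 0.60 with coding length; over 8592 genes the values were 0.55 and 0.59. Of 26 members under 1500 bases, 24 were lower, none higher and 2 not passed, with a median log2 ratio of -3.32. Of all 2019 tested genes of that length, 1522 were lower and 87 higher. All 9 members from 1500 to 2000 bases were lower, at a median of -2.27, beside 489 lower and 167 higher of 1220 tested genes. Of 5927 tested genes of 2000 bases or more, 3220 were higher and 626 lower. Of 11 members of that length, 5 were higher, 3 lower and 3 not passed. The 3 long genes that were lower were Psma2, Psma3 and Psmd11. In deposited models other than the known ones that reached the last exon, that exon of Psma2 was 156 bases (median of 8 reads). The annotated one has 2288. That of Psma3 was 151 bases (25 reads) where 1997 are annotated, and that of Psmd11 200 bases (10 reads) where 1539 are annotated. Psmb1 was alike, at 247 bases (13 reads) and 1185. With these ends the transcripts of Psma2, Psma3, Psmd11 and Psmb1 would be 779, 1000, 1509 and 820 bases. Short last exons were also found in genes not called lower by total reads. That of Psmc6 was 241 bases (31 reads) where 1123 are annotated and that of Psmd9 235 bases (2 reads) where 1839 are. Psmc6 and Psmd9 were lower with TMM and DESeq2 factors and with annotated length taken away. In Psmd5, higher by total reads, it was 732 bases (11 reads) where 3100 are annotated. The part of these ends in the differences was not tested. These are ends of deposited models, and the ends of single reads were not measured here. In such models of Psma1 and Psma4 all reads (24 and 13) had the annotated last exon, 351 and 396 bases. For reads in known structures the deposited tables repeat the annotated length.

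**Figure D3:**
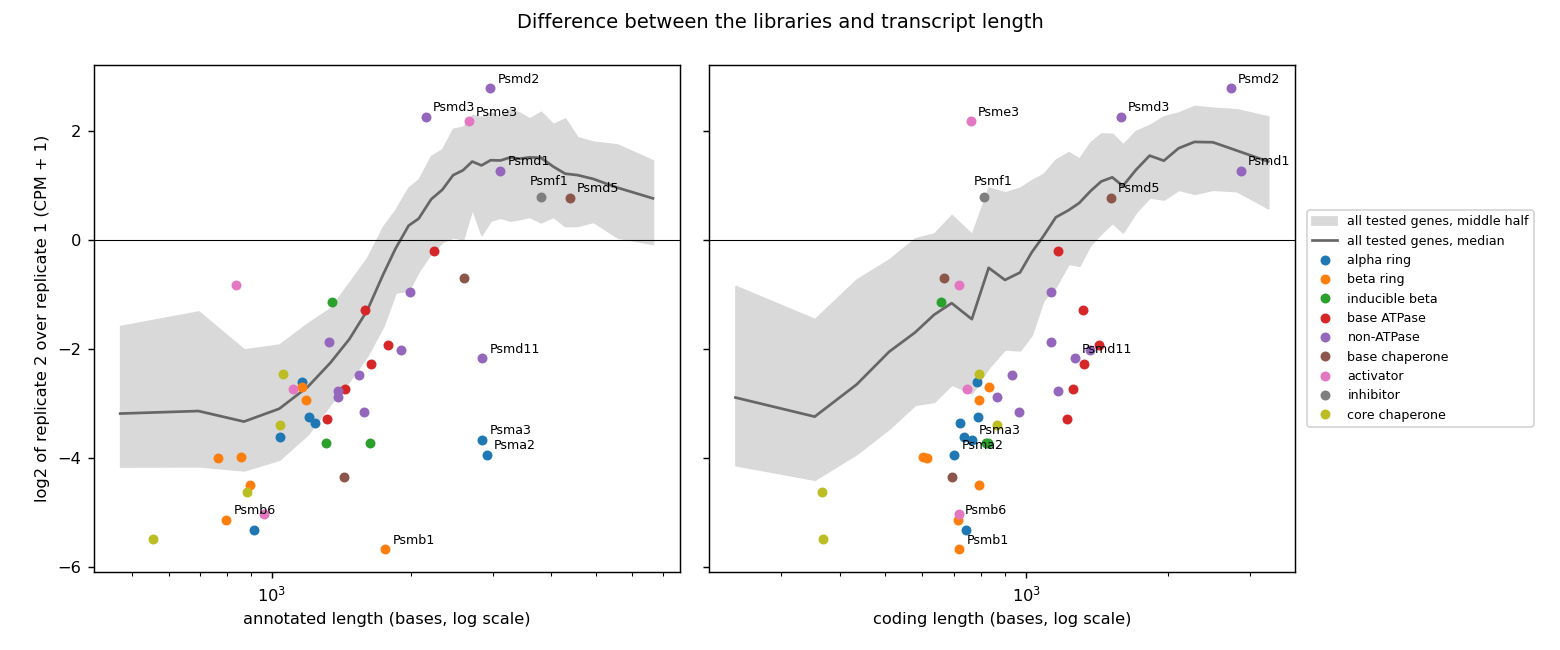
Log2 ratio of replicate 2 over replicate 1 (CPM plus 1) against annotated length (left) and coding length (right) on log axes, for the 46 tested members coloured by role, with the median and quartiles of all tested genes in grey. Members rise with length as the grey median does, and at their annotated length Psma2 and Psma3 lie far below it, at -3.94 and -3.66.

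Members were next compared with genes of like length, by taking away a running median of the log2 ratio along length. With annotated length taken away, 3 members were higher, 21 lower and 22 not passed, beside 41.6% of all genes called (20.1% higher and 21.4% lower), and the members' median was -0.84. With coding length, a comparison added after seeing the data, 4 were higher, 35 lower and 7 not passed. Beside them 49.8% of all genes were called (25.6% higher and 24.2% lower), and the members' median was -2.23. Psmd2, Psmd3 and Psme3 were higher under both, under TMM and DESeq2 scaling and with no correction. For Psmd2 the ratio beyond length was 1.35 and 1.15, and for Psmd3 1.65 and 1.30. For Psme3 it was 0.76 and 3.63. By the same 5 comparisons 19 members were lower: Psma2, Psma3, Psma7, Psmb1, Psmb5, Psmb6, Psmb8, Psmc2, Psmc3, Psmc4, Psmc5, Psmd7, Psmd8, Psmd10, Psmd11, Psmd12, Psmd13, Psmd14 and Psme2. How many of all tested genes passed all 5, in either direction, was not counted. Psmd1 turned direction, from 1.27 to -0.21 (adjusted p = 0.20, exact binomial test) and to -0.47 (adjusted p = 0.00080). Psmd5 turned to -0.48 and -0.42 and passed under neither. Psmf1 turned to -0.72 with annotated length (adjusted p = 0.16) and was 1.76 with coding length (adjusted p = 6.09e-05). Psma4, Psmb7, Psmc1, Psmd4, Psme1 and Psmg2, all lower before, had ratios between 0.04 and 0.55 with annotated length and did not pass. A further 11 genes that were lower before kept ratios below 0 and did not pass with annotated length: Psma1, Psma5, Psma6, Psmb2, Psmb3, Psmb4, Psmb10, Psmd6, Psmg1, Psmg3 and Psmg4. Psmc6 (-1.06, adjusted p = 4.11e-07) and Psmd9 (-2.00, adjusted p = 4.55e-06) passed as lower with annotated length. With coding length Psmc6 was lower (-0.58, adjusted p = 0.0087) and Psmd9 did not pass (0.63, adjusted p = 0.22).

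Most reads of the members matched a full annotated structure. Known structures held 86.4% of their reads in replicate 1 and 68.3% in replicate 2 (mean 77.4% ± 12.8, SD, n = 2), beside 76.7% and 75.3% for all annotated genes. Incomplete splice matches, models that hold a run of a transcript's junctions and lack its start or end, took 9.69% and 21.5%. Psmd1 and Psmc2 held many of them. Without them, a count added after seeing the data, known structures held 90.8% and 83.0% and incomplete ones 5.35% and 6.32%. Of the known reads, 98.7% and 98.9% were in coding transcripts. Retained introns took 0.90% and 0.84%, and transcripts annotated as targets of nonsense-mediated decay had 30 reads in replicate 1 and 0 in replicate 2.

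**Figure D4:**
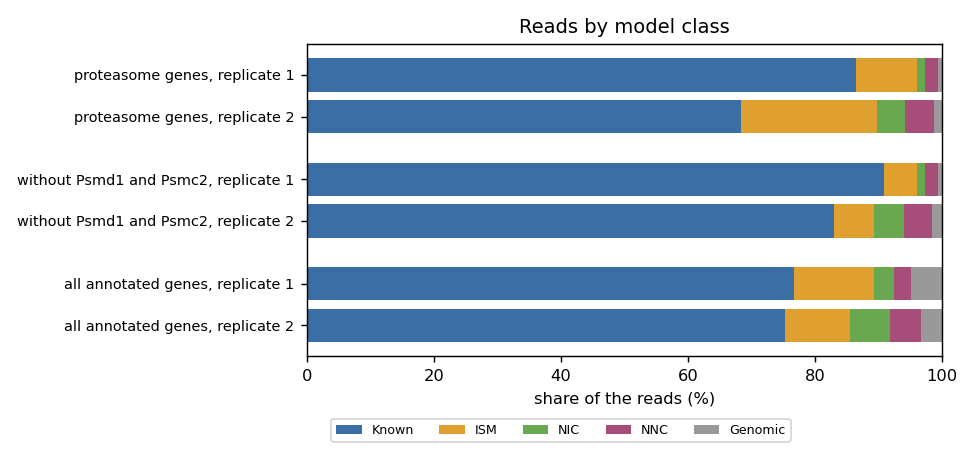
Share of reads in known, incomplete (ISM), new combinations of known splice sites (NIC), new splice sites (NNC) and genomic models, for the members, the members without Psmd1 and Psmc2, and all annotated genes, in both libraries. Leaving out the 2 genes takes the known share of replicate 2 from 68.3% to 83.0%.

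Nearly all Psmd1 models stopped before the annotated end of the gene. Junctions 1 to 20 of Psmd1-201, which has 25 exons, were held by most spliced reads, and junction 20 by 192 of 214 and 326 of 335. Junction 21 was held by 136 and 238 reads, and junction 22 by 2 and 3. The last junction was held by 2 of 214 reads (0.93%) and 4 of 335 (1.19%). Models that ended in exon 22 took 112 and 217 reads, 51.9% and 64.8% of the gene. Models that ended in exon 21 took 50 and 82, 23.1% and 24.5%. Exon 21 has up to 16 A in 20 bases, where the median of 24 exons is 9.5 and 1 exon has more. The exon 21 model ended at the last base of that exon, 93, past a window at bases 72 to 91.

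Other members had fewer such models. Psmd2 had models that ended in exon 15 of 21, with 28 reads (20.4% of the gene) in replicate 1 and 17 (2.79%) in replicate 2. Exon 15 has 14 A in 20 bases, more than any of the other exons compared, at bases 81 to 100, and the model of replicate 1 ended at base 42. Psmd12 had 30 reads and 0 that ended with exon 6 of 11, which has a run of 7 A and the most A of 10 exons. Psmc3 had 16 reads and 0 that ended with exon 3 of 12, also the exon with the most A. Psmd14 had 23 reads and 0 ending with exon 10 of 12, and Psme1 had 24 reads and 1 ending past exon 4 of 11. In Psmd14 and Psme1 the exon was not the richest in A. The models of Psmd12, Psmc3 and Psmd14 ended at the last base of an exon. Exons of Psmd1, Psmd2 and Psmd12 are printed to show the A-rich window, 20 bases in capitals, on the plus strand of mm10. They are coding in full, and the part of these stretches in where reads end was not tested.
Psmd1 exon 21, chr1:86130637-86130729: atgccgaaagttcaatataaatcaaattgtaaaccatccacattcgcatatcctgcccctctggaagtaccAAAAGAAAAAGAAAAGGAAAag
Psmd2 exon 15, chr16:20659957-20660102: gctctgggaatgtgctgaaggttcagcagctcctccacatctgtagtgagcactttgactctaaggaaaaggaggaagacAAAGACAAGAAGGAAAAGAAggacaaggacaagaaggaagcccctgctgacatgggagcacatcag
Psmd12 exon 6, chr11:107491781-107491930: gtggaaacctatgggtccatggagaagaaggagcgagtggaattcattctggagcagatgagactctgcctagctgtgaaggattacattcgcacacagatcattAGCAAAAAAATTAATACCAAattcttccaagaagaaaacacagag

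Psmc2 lacked its start rather than its end. Of its spliced reads, 1 of 227 in replicate 1 and 0 of 38 in replicate 2 held the first junction of Psmc2-201, and a count of 0 allows up to 3 reads. The last junction was held by 223 and 37. Models that ran from exon 2 to the last of 13 exons took 214 reads (93.9%, interval 89.9 to 96.6%) and 32 reads (84.2%, interval 68.7 to 94.0%). The deposited model began at base 21786650 of chromosome 5, the annotated first base of exon 2. The RefSeq promoter table (GRCm38.p6) gives the gene 2 starts, at 21785275 upstream of exon 1 and at 21786747, which lies 97 bases inside exon 2. GENCODE places the start codon in exon 2, at 21786689, upstream of the RefSeq start. The next ATG in the same frame lies 42 codons downstream, at 21786815. The bases of RefSeq's second window that precede exon 2, in intron 1 of Psmc2-201 on the plus strand, and the first 27 bases from each ATG (capitals) are printed to show both starts.
Psmc2 before exon 2, chr5:21786497-21786649: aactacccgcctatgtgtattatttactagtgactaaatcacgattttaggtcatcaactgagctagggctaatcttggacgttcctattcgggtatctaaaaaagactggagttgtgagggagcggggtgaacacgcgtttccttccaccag
Psmc2 annotated start, chr5:21786689-21786715: ATGtccagggaaccggcgcccgggcgc
Psmc2 next ATG in frame, chr5:21786815-21786841: ATGccggattacctaggtgcggaccag

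Psmc1 had a smaller number of such models, 25 of its reads in replicate 1 (15.2%) and 5 in replicate 2 (11.6%) beginning in exon 2, and Psmb3 had 9 and 1. Psmd3 and Psmd5, also higher in replicate 2 by total reads, held their last junction in nearly all spliced reads. This does not show where the last exon ended. In models of Psmd5 other than the known ones that exon was 732 bases where 3100 are annotated. Psmd3 held the last junction in 67 of 68 and 205 of 210 reads, and Psmd5 in 63 of 64 and 72 of 73. Psmd3 held the first junction in 55 of 68 and 210 of 210 reads, and Psmd5 in 59 of 64 and 71 of 73.

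**Figure D5:**
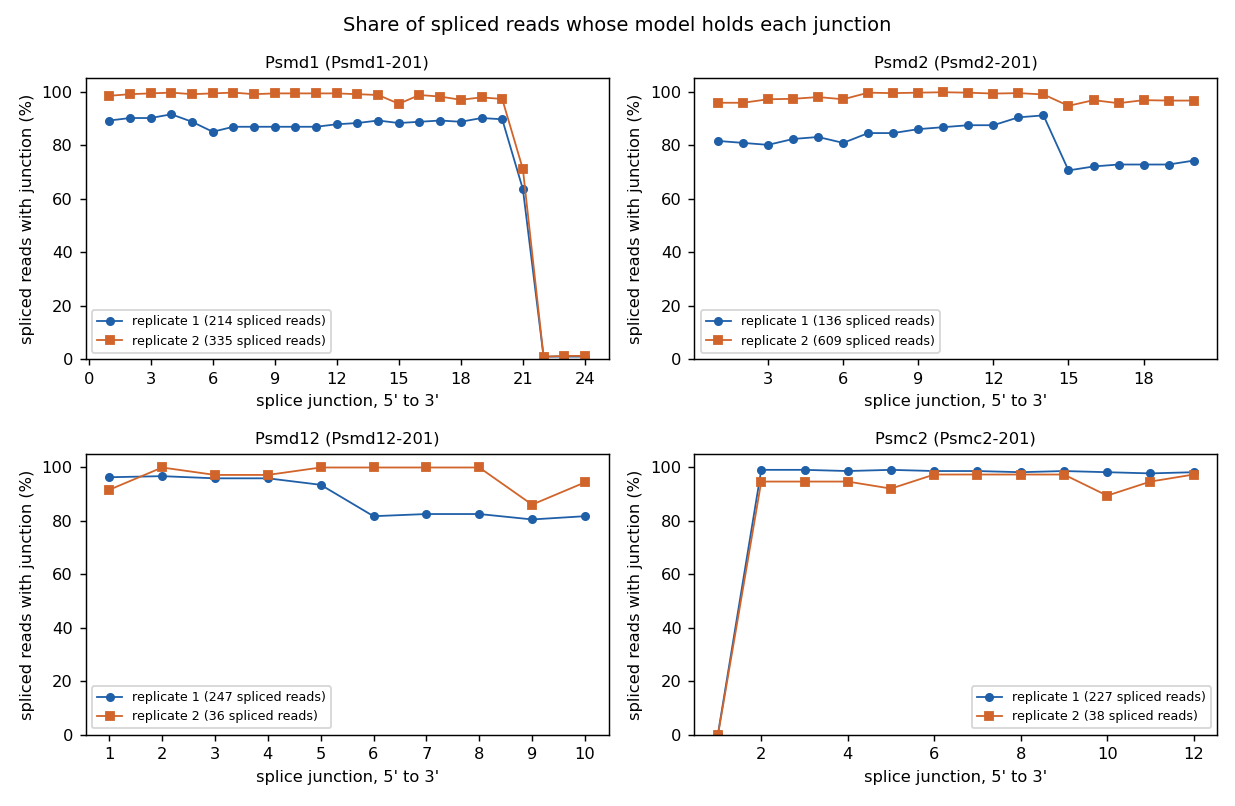
Percentage of spliced reads whose model holds each junction, numbered from the 5′ end, for Psmd1, Psmd2, Psmd12 and Psmc2 in both libraries. Psmd1 drops to 0.93% and 0.90% at junction 22, Psmd2 and Psmd12 step down after junctions 14 and 5 in replicate 1 (from 91.2% to 70.6% and from 93.5% to 81.8%), and Psmc2 lacks junction 1 in both libraries.

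Isoform use could be tested in 16 members, those with at least 20 reads of known or new spliced structures in each library. None passed (exact Fisher test of the most used structure against the rest), beside 9.55% of the 2251 genes tested, and 4 had an unadjusted p under 0.05, namely Psmc4, Psmc5, Psmd12 and Psmd4. In most members a single structure dominated: Psmc5-201 made up 97.5% and 88.9%, Psmd3-201 96.4% and 95.2%, and Psmd2-201 91.6% and 90.9%. With at least 10 reads in each library, 28 members were tested and 1 passed, beside 7.86% of all genes, and with known models only none passed, beside 7.3%. This was Psmb2, whose main structure made up 260 of 268 reads and 5 of 10 (adjusted p = 0.00077).

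Psmd4 was the member with the most even use of 2 coding isoforms. Psmd4-201 had 94 and 13 reads and Psmd4-202 had 172 and 20. Psmd4-202 made up 60.8% of the tested reads in replicate 1 (interval 54.8 to 66.5%) and 43.5% in replicate 2 (28.9 to 58.9%), and the difference did not pass (adjusted p = 0.21, exact Fisher test). Between their first and last exons the isoforms differ only by the donor site of exon 7. There Psmd4-201 keeps 9 more bases, or 3 codons, at chr3:95033909-95033917. The annotated transcripts are 1276 bases for Psmd4-201 and 1332 for Psmd4-202, so the outer exons differ in length as well. The junctions are printed 5′ to 3′ on the minus strand, with the last 30 shared bases of exon 7, the extra bases in capitals and the first 30 bases of exon 8.
Psmd4-201: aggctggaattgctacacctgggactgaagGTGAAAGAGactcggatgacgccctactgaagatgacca
Psmd4-202: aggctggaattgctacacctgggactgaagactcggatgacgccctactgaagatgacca

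Other annotated isoforms took smaller shares. Psmd11-214, which has the same coding length as Psmd11-201 in a transcript of 1626 and not 2848 bases, had 55 reads beside 192 in replicate 1 and 10 beside 22 in replicate 2. Psmg4-201, with a coding sequence of 246 and not 369 bases, had 10 reads in replicate 1 beside 25 of Psmg4-202. Psmd10-202 had 8 reads beside 37 of Psmd10-201. Psma3 had 18 reads of Psma3-201, annotated as a decay target, and 18 of Psma3-203, a retained intron, beside 334 of the coding Psma3-202.

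Unannotated spliced structures were many and thin. There were 337 of them, 221 in replicate 1 and 141 in replicate 2, and 25 were found in both libraries. A single structure was in both with at least 10 reads summed. It belonged to Psmd2, with 2 and 9 reads, and differed from Psmd2-201 by a donor site 2 bases upstream, with the intron starting at 20655410 and not 20655412 on chromosome 16.

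What the promoters share was read from RefSeq windows of 250 bases before and 50 after the start, which matched 41 of the 49 genes with 44 windows. The 2 motifs TGACNNNGC and TGAGNNNGC, core forms of the antioxidant response element bound by the transcription factors that raise proteasome genes, were searched on both strands. The forms differ in 1 letter and cannot match at the same position. TGACNNNGC was in 13.6% of the members' windows and 12.4% of 32851 windows of all genes. TGAGNNNGC was in 31.8% and 17.6%, and either form in 40.9% and 27.8%. CCAAT was in 31.8% and 37.4%. A match is a description of letters in the window. Of the 6 genes with TGACNNNGC, the 3 with the match on the strand of the gene are printed, with 10 bases on either side, on the strand of the gene, with the motif in capitals.
Psmb5, chr14:54618024-54618052: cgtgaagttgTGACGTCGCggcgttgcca
Psmb6, chr11:70525338-70525366: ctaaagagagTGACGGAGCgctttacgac
Psmd9, chr5:123228149-123228177: atctagccggTGACCCCGCccacttccaa

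The matches begin 47, 9 and 31 bases before the start. Of the 49 genes, 8 start within 1000 bases of a protein-coding gene on the opposite strand that points away from them (16.3%). The share was 6.77% of 22028 annotated protein-coding genes. The 49 all had reads in these libraries, whereas the 22028 include genes without reads. The share among protein-coding genes with reads was not counted. The closest pair was Psmc2 and Dnajc2, a chaperone gene, 32 bases apart as annotated. That distance runs from exon 1 of Psmc2, whose junction was held by 1 of 227 and 0 of 38 spliced reads, and not from exon 2, where most of its models begin. Psmc2 had 269 and 69.7 CPM and Dnajc2 60.1 and 18.3 CPM. Some partners lay far from the member in level. Psmb1 had 608 and 11.0 CPM and Tbp, 137 bases away, 16.5 and 3.67 CPM. Psmc5 had 599 and 60.5 CPM, and Ftsj3, 75 bases away, was higher in replicate 2, at 60.1 and 220 CPM. The annotated transcripts are 1758 bases for Psmb1 and 12794 for Tbp, and 1316 for Psmc5 and 3144 for Ftsj3. The part of length in these levels and differences was not tested.

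Genes that work with the proteasome but lie outside the symbol rule did not move as a block. Of 21 tested genes of a pathway list, 10 were higher in replicate 2, 6 lower and 5 not passed, with a median log2 ratio of 0.43 beside 0.38 for all genes. Over all genes 36.6% were higher and 27.9% lower. Against genes of like annotated length 5 of the list were higher and 6 lower. Those lower by total reads included partners of the complex: the core maturation factor Pomp had 437 and 5 reads, the lid subunit Sem1 had 178 and 5, and the ubiquitin receptor Adrm1 had 323 and 55. Against genes of like length Pomp and Sem1 were lower and Adrm1 did not pass (-0.38, adjusted p = 0.13). Those higher, also against genes of like length, included the unfoldase Vcp with 363 and 1258 reads and Nfe2l1, the factor that raises proteasome genes when the protease is impaired, with 50 and 179. Of the antigen processing genes, Tap1, Tap2, Tapbp, Irf1 and Erap1 were higher. B2m was lower, with 719 and 94 reads. Against genes of like annotated length B2m turned to 1.02 (adjusted p = 3.46e-08, exact binomial test), Erap1 did not pass (1.05, adjusted p = 0.062), and Tap1, Tap2, Tapbp and Irf1 were higher. Tap1 had 25 and 93 reads and Tap2 11 and 111, whereas Psmb8 and Psmb9, which lie beside them in the major histocompatibility region, had 113 and 5 and 25 and 7. The annotated transcripts of Tap1 and Tap2 are 2953 and 3442 bases and those of Psmb8 and Psmb9 1628 and 1352.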

How the data were processed

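Long-read RNA libraries of adrenal gland (1 group, 2 libraries) were deposited as read counts per transcript model with an annotation of the models. The deposited counts are whole reads, not normalized, made by the authors on mm10 with GENCODE M21 per the file headers, and the annotation's source column names TALON. No aligner or platform is named: not given in the sources used here. Gene counts are sums over all models of a gene, and CPM divides them by the total reads (848782 and 545229).

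Genes with at least 10 reads summed were compared between the libraries by Fisher's exact test, two-sided, which compares these libraries and not conditions. Its p-values were adjusted over all tested genes by Benjamini and Hochberg (threshold 0.05). Exact binomial tests replaced it where TMM (edgeR 4.0.16) or DESeq2 1.42.0 factors, or a running median over length, set the expected share. Isoform use was tested where each library had 20 reads. Intervals are 95% Clopper-Pearson or Poisson and cover counting error only. Log2 ratios use a pseudocount of 1 CPM. Annotated length is the read-weighted median of known models, and gene positions and exons are from GENCODE M21. Scripts in Python 3.11.15 and R 4.3.3 were tested on simulated data. With 1 group and 2 libraries there is no replicate error for a difference between them.

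The members, roles and lists were chosen with earlier results of these data known. Values are given for the highest and lowest member of each role, the catalytic subunits, activators and inhibitor, members under 10 reads, members that passed the isoform test or turned direction with length, and unannotated structures in both libraries with at least 10 reads. Other members named were chosen after their values were seen. Models read on the opposite strand were left out of the members' counts. Of the antigen processing genes, 1 is not reported here, nor are the bases of 1 Psmd1 exon.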

Additional observations from a re-analysis of the deposited data

Results flagged for a closer look

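Models on the strand opposite to a member were not counted for it, and reads of such models exceeded 3, the limit that a count of 0 allows, over 4 members. Over Psmc2, replicate 1 held 44 antisense reads and replicate 2 held 0. Of these, 43 were in an unspliced model of 1433 bases at chr5:21790578-21792010, which touches no exon of Psmc2-201. Over Psmd5, replicate 1 held 10 antisense reads and replicate 2 held 2, also outside the exons of its main transcript. Over Psmd2, replicate 1 held 5 and replicate 2 held 0, in models that overlap 4 or 5 of its exons. Over Psme3, replicate 2 held 6 and replicate 1 held 0, in 3 models that overlap 1 to 3 of its exons. Whether the deposited counts used the strand of the read is not given in the sources used here, so these reads and those of the genes cannot be told apart with certainty.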

How the results depend on the processing

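No paired analysis was possible because there is 1 group. The number of members called, 41, was 24 with annotated length taken away (3 higher and 21 lower), and 39 to 43 under the other settings. The median log2 ratio, -2.75, was -2.57 and -2.80 with pseudocounts of 5 and 0.1 CPM, -3.18 with TMM factors, -3.19 with DESeq2 factors, -2.74 without a filter, -0.84 with annotated length and -2.23 with coding length taken away. Isoform calls went from 0 to 1 at 10 reads in each library and stayed at 0 with known models only. Leaving out each library in turn gave 0.382 to 1.08% for the members' share of reads, 15.6 to 34.1% for the inducible share and 68.3 to 86.4% for known structures. Directions turned with annotated length for Psma4 (0.16), Psmb7 (0.094), Psmb9 (1.08), Psmc1 (0.042), Psmd4 (0.42), Psme1 (0.17), Psme2b (2.46), Psmg2 (0.55), Psmd1 (-0.21), Psmd5 (-0.48) and Psmf1 (-0.72), and with coding length for Psmb9 (0.23), Psmd9 (0.63), Psme2b (0.46), Psmd1 (-0.47) and Psmd5 (-0.42). TMM and DESeq2 factors each added Psmb9, Psmc6 and Psmd9 to the calls and ended that of Psmd5. Coding length, and the known share without Psmd1 and Psmc2 (mean 86.9%), were alternatives chosen after seeing the data. The length trends compare members with genes of like length, and the cause of the differences was not tested. Replicate 2 limits precision: the alpha ring rests there on 95 reads, the beta ring on 62 and the inducible subunits on 15.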
